A study of Mus musculus with 32 samples.

Results

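The genes of the proteasome were followed in quadriceps muscle of wild-type (WT) mice and of mice that lack Col6a2, which encodes a chain of collagen VI, a protein of the muscle extracellular matrix. Members were all genes whose symbol begins with Psma to Psmg followed by a number, pseudogenes left out, so the rule itself reads names and no expression value; the set was proposed with earlier results of these data known. In all, 50 of 53801 listed genes met the rule, and 47 of them passed the filter of at least 1 TPM in at least 4 libraries, as did 12817 genes overall. TPM is the transcript abundance of a gene per length, scaled to a common total in each library.

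The 8 groups were WT and Col6a2-/- mice, female and male, at 5 and 25 weeks of age, with 4 mice and 4 libraries in each. Col6a2-/- mice were homozygous for the KOMP allele Col6a2tm1(KOMP)Vlcg, a germline change present in every tissue, made in C57BL/6N and crossed back for 5 generations to C57BL/6J. Both genotypes came from heterozygous breeders, and RNA came from sections of frozen muscle, so each library mixes fibres with the other cells of the tissue. Inferred depth, a relative measure, was 6.78 to 13.69 gigabases per library. The labels name a MiSeq, whose usual yield these values exceed, so their absolute size is uncertain. Col6a2 stood at 6.60 to 51.2 TPM in WT libraries and at 0.171 TPM or below in Col6a2-/- libraries. Muscle fibre markers, the defining genes of the labelled tissue, summed to at least 25847 TPM in every library.

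The proteasome degrades proteins that carry ubiquitin. Its barrel-shaped core, the 20S particle, is built from alpha subunits (Psma) and beta subunits (Psmb), and 3 of the beta subunits, Psmb5, Psmb6 and Psmb7, cut peptide bonds. In cells exposed to interferon, and constitutively in many leukocytes, Psmb8, Psmb9 and Psmb10 replace Psmb5, Psmb6 and Psmb7 in that order and form the immunoproteasome, which shapes peptides for antigen presentation. The 19S regulatory particle (Psmc ATPases and Psmd subunits) recognises and unfolds substrates, the Psme proteins are other caps, Psmf1 can inhibit the core, and Psmg proteins with Psmd5, Psmd9 and Psmd10 act in assembly. In muscle, this system is known for the breakdown of contractile proteins during wasting.

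The results below turn on 4 catalytic genes. On GRCm38, Psmb5 lies at chr14:54614119-54618022 (minus strand), Psmb8 at chr17:34197721-34201454 (plus strand), Psmb9 at chr17:34181988-34187764 (minus strand) and Psmb10 at chr8:105935735-105938444 (minus strand). Their RefSeq promoters on GRCm38.p6 (250 bases before to 50 after the annotated start, 5′ to 3′ on the strand of the gene) are shown because these are the 3 immune subunits and the standard catalytic subunit that was called at 5 weeks, with matches to the motifs named next in capitals. The windows are chr14:54617946-54618245, chr17:34197945-34198244, chr17:34187281-34187580 and chr8:105938343-105938642 in the same order. The starts are those of RefSeq, which differ from the gene ends in the deposited tables: the Psmb8 and Psmb9 windows lie wholly inside the spans given above.
Psmb5: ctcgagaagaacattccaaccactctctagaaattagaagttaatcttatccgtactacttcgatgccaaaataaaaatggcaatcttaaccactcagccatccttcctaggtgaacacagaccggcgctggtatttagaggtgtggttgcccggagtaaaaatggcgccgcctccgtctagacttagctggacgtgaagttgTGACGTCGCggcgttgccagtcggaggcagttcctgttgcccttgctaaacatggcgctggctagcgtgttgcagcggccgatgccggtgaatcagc
Psmb8: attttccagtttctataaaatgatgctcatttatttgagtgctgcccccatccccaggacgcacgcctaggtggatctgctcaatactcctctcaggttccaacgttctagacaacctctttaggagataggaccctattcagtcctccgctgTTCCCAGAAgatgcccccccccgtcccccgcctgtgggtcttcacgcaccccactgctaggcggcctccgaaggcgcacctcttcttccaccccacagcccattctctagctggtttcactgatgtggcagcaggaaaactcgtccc
Psmb9: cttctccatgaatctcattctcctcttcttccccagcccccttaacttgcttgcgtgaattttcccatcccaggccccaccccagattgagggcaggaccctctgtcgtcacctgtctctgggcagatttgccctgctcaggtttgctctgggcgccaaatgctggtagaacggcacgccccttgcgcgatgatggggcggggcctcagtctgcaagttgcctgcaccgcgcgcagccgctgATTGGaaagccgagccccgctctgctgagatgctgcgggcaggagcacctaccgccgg
Psmb10: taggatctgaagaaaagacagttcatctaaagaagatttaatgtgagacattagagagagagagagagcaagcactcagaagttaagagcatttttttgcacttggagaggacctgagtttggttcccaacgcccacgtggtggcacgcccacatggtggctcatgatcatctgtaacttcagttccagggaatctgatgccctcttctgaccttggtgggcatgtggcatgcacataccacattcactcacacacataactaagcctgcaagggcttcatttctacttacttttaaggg
Matches were sought on both strands for 4 letter patterns, none of which contains another. TGACNNNGC, the core of the antioxidant response element, was present in the Psmb5 window and in 12.4% of all 32851 promoters of this length. TTCNNNGAA, the core of the gamma-activated site, was present in the Psmb8 window and in 8.30% of all promoters. The CCAAT box, read on the opposite strand as ATTGG, was in the Psmb9 window and in 37.4% of all promoters, and the Psmb10 window held none of the 4. The core of the interferon-stimulated response element, searched as GAAA and GAAA with any 2 bases between them, was in 5 of the 45 member promoters (42 of the 50 members had an entry) and in 3.44% of all promoters, and in none of the 3 immune ones. These matches describe letters and are not evidence of binding.

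Standard subunits were abundant in every library and immune subunits were scarce. In the beta ring, mean TPM over the 32 libraries ran from 101.2 for Psmb7 down to 32.3 for Psmb2, a 3.14-fold range, and in the alpha ring from 53.2 for Psma4 to 17.9 for Psma2. Among the ATPases, Psmc3 (70.9) was highest and Psmc2 (23.4) lowest in mean TPM, and among the other 19S subunits Psmd6 (58.9) and Psmd3 (10.9) marked the ends. Mean TPM of the immune subunits was 5.36 for Psmb10, 2.81 for Psmb8 and 1.26 for Psmb9. Assembly factors lay between 9.68 (Psmg2) and 3.01 (Psmg3) TPM. Of the caps, Psme4, which encodes the activator PA200, reached 44.3 TPM on average and Psme2, a subunit of the interferon-inducible activator PA28, 19.3 TPM. Psma8 and Psmb11, core subunits of the germ line and of thymus, were listed at 0 in 24 and 29 libraries, and Psmc3ip, which shares the prefix but acts in recombination, averaged 0.703 TPM; these 3 were not tested. Psme2b, named as a copy of Psme2, passed with 4 libraries at or above 1 TPM, all from Col6a2-/- mice, so its difference between genotypes was favoured by the filter.

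Over the 32 libraries, the median coefficient of variation was 15.9% for the proteasome genes tested and 23.4% for all genes tested. For the 3 immune subunits it was 30.6%. The lowest values were 7.62% for Psmb3 and 9.29% for Psmb7. The highest were 42.3% for Psme2b and 35.0% for Psmb9, the scarcest members tested. The sets were not matched for TPM, so whether they differ in variation apart from level was not tested. All members together summed to 1159 to 1916 TPM per library, and 926.5 TPM of the standard 20S core was reached in the highest library, Col6a2-/- 5-week female replicate 2.

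At 5 weeks, 2 of the 3 immune subunits were higher in Col6a2-/- muscle, in a comparison where 25.4% of all genes tested were called. Psmb8 stood at 2.24, 1.56, 2.13 and 2.13 TPM in WT females and at 3.01, 2.41, 2.58 and 1.82 TPM in WT males (replicates 1 to 4 throughout). In Col6a2-/- mice it stood at 4.49, 4.15, 3.90 and 1.82 TPM in females and at 5.08, 3.15, 3.81 and 3.30 TPM in males. Female replicate 4 lay inside the WT range, and the other 7 Col6a2-/- libraries lay above all WT libraries of that age. The change in Psmb8 was 0.52 ± 0.13 (SE) in log2(TPM + 1), adjusted p = 0.00356, with means of 3.72 ± 0.983 and 2.23 ± 0.447 TPM (SD, n = 8 each). Here and below, changes come from limma fitted over all 12817 genes and p-values are adjusted over all of them; a gene with an adjusted p under 0.05 is called. Leaving out 1 library at a time gave changes in Psmb8 of 0.47 to 0.63, the highest without Col6a2-/- female replicate 4, and other settings gave 0.33 to 0.68. On this scale changes of genes with low TPM are understated.

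The TPM of Psmb10 was 4.10, 3.86, 4.34 and 4.53 in WT females, 6.11, 5.03, 5.08 and 3.56 in WT males, 7.63, 6.45, 6.88 and 3.8 in Col6a2-/- females and 8.26, 6.72, 7.52 and 6.12 in Col6a2-/- males. Again female replicate 4 fell among the WT libraries and the other 7 did not. The change in log2(TPM + 1) was 0.45 ± 0.11 (limma, adjusted p = 0.00281), with 0.39 to 0.54 without 1 library, the highest without that one, and 0.28 to 0.52 in other settings. Psmb9, by contrast, overlapped between the genotypes: 0.665, 1.11 and 1.70 TPM (lowest, median, highest) in 8 WT mice and 0.697, 1.41 and 2.40 TPM in 8 Col6a2-/- mice. Its change of 0.20 was not called (95% confidence interval -0.06 to 0.47, adjusted p = 0.250), and whether it differed from that of Psmb8 or Psmb10 was not tested. Psmb9 overlaps Tap1 on the other strand, and since the use of strand in quantification is not given in the sources used here, its reads may not be fully separated. In bulk muscle, more cells of a type and more RNA per cell cannot be told apart.

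**Figure D1:**
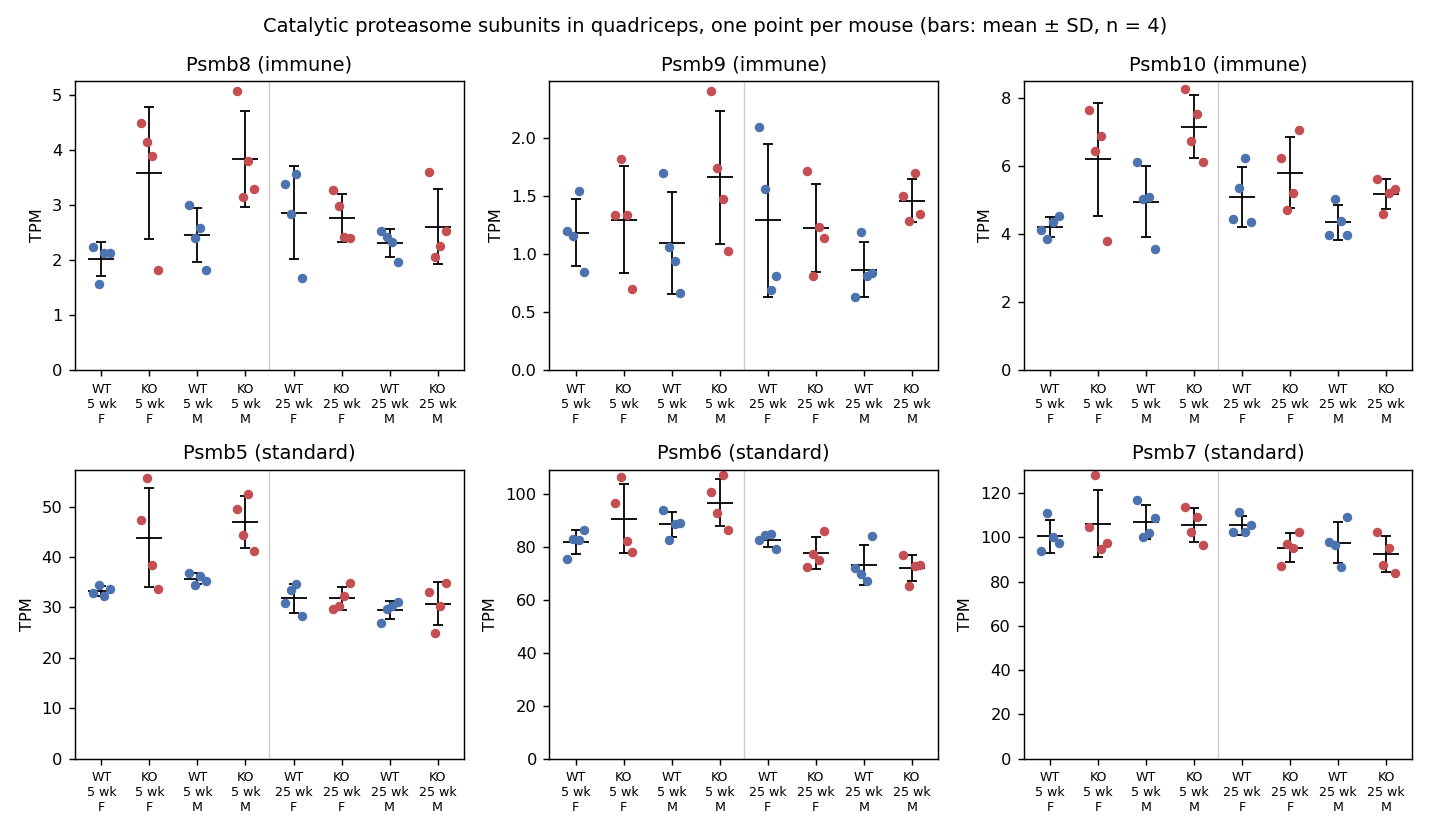
TPM of the 3 immune subunits (upper row) and the 3 standard subunits they replace (lower row) by group, 1 point per mouse (blue WT, red Col6a2-/-, written KO), with mean ± SD as bars (n = 4). At 5 weeks, 7 of 8 red points lie above every blue point for Psmb8, Psmb10 and Psmb5, while Psmb9, Psmb6 and Psmb7 overlap. The share of all genes with 7 of 8 above was not computed. With the sexes together, no proteasome gene was higher without overlap at 5 weeks, against 1.18% of all genes.

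Many markers of cells other than fibres were also higher in Col6a2-/- muscle at 5 weeks. All 12 macrophage markers were called higher at 5 weeks, led by Ctss (2.17), Lyz2 (1.97), Adgre1 (1.43) and C1qb (1.37 in log2 units), and their summed level was 68.0 to 115.5 TPM in WT and 116.0 to 391.5 TPM in Col6a2-/- libraries. The lowest Col6a2-/- sum, 116.0 TPM, belonged to female replicate 4. The 3 pan-leukocyte markers were called higher too, with sums of 4.34 to 8.33 against 8.24 to 28.2 TPM. T cell and B cell markers summed to no more than 1.34 and 1.58 TPM in any library and none passed the filter. At 5 weeks the T cell sum was 0.196 ± 0.0972 TPM in WT and 0.808 ± 0.345 TPM in Col6a2-/- mice (SD, n = 8 each). The B cell sum was 0.325 ± 0.171 and 0.666 ± 0.323 TPM. These low sums were not tested. Of 24 genes of interferon signalling and antigen processing, 20 were called higher at 5 weeks and none lower, led by Irf7 (1.16 ± 0.16), Ifit3 (1.03 ± 0.22), B2m (0.96 ± 0.14) and H2-D1 (0.87 ± 0.15). Over all genes tested, 23.2% were called higher and 2.14% lower at 5 weeks. Fibroblast markers (4 of 6) and endothelial markers (3 of 6) were called higher. Of the 8 fibre markers, 4 were called lower, with Pvalb at -0.51 and Myh4 at -0.43, and 1 had a value above 0 (0.45, not called). The part of these shifts in the levels of Psmb8 and Psmb10 was not tested.

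Among the standard catalytic subunits, Psmb5 was higher at 5 weeks and Psmb6 and Psmb7 were not called. Psmb5, the chymotrypsin-like subunit that Psmb8 replaces, stood at 32.8, 34.4, 32.3 and 33.7 TPM in WT females and 36.8, 34.5, 36.3 and 35.2 TPM in WT males. It reached 47.4, 55.8, 38.5 and 33.5 TPM in Col6a2-/- females and 49.6, 44.3, 52.6 and 41.2 TPM in Col6a2-/- males. WT libraries were tightly grouped, and only female replicate 4 of the Col6a2-/- libraries lay within their range. The change in log2(TPM + 1) was 0.37 ± 0.08 (limma, adjusted p = 0.00208), with 0.31 to 0.43 without 1 library and 0.18 to 0.38 in other settings.

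Psmb6, the caspase-like subunit, had a lowest, median and highest level of 75.6, 84.7 and 94.2 TPM in WT and 78.0, 94.7 and 107 TPM in Col6a2-/- mice at 5 weeks, a change of 0.13 with a 95% interval of -0.01 to 0.27 (adjusted p = 0.164 by limma). Psmb7, the trypsin-like subunit, spanned 93.7 to 117 TPM in WT and 94.7 to 128 TPM in Col6a2-/- mice, a change of 0.03 with an interval of -0.12 to 0.17 (adjusted p = 0.805). Whether the 3 standard catalytic subunits differed in their change was not tested. Of the other core subunits, Psma5 (0.26 ± 0.09, adjusted p = 0.0446) and Psma1 (0.21 ± 0.08, adjusted p = 0.0479) were called by limma, and the 5 other alpha and 4 other beta subunits were not.

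The share of immune to standard subunit within a library does not depend on the scaling between libraries. Psmb10 as a percentage of Psmb7 was 4.42 ± 0.716 in WT and 6.32 ± 1.23 in Col6a2-/- mice at 5 weeks (SD, n = 8 each), and 6 of 8 Col6a2-/- libraries lay above the highest WT library. The log2 ratio of these 2 genes differed by 0.51 between genotypes at 5 weeks, beyond the spread within groups (SD 0.29). Psmb8 as a percentage of Psmb5 was 6.47 ± 1.14 in WT and 8.15 ± 1.69 in Col6a2-/- mice, a log2 difference of 0.33 that is close to the SD of 0.31, since both genes were higher. For Psmb9 over Psmb6 the log2 difference of 0.22 was smaller than the SD of 0.45. At 25 weeks the log2 differences were 0.34 for Psmb10 over Psmb7 (SD 0.23), 0.05 for Psmb8 over Psmb5 (SD 0.31) and 0.46 for Psmb9 over Psmb6 (SD 0.51). Leaving out 1 library gave 5-week differences of 0.43 to 0.60 for Psmb10 over Psmb7, 0.26 to 0.42 for Psmb8 over Psmb5 and 0.11 to 0.33 for Psmb9 over Psmb6. The last was lowest without WT male replicate 4 and highest without WT male replicate 1. At 25 weeks the ranges were 0.29 to 0.39, -0.04 to 0.10 and 0.33 to 0.60, and the Psmb8 over Psmb5 value was below 0 without replicate 4 of either WT sex or replicate 1 of either Col6a2-/- sex. No p is given for these ratios.

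**Figure D2:**
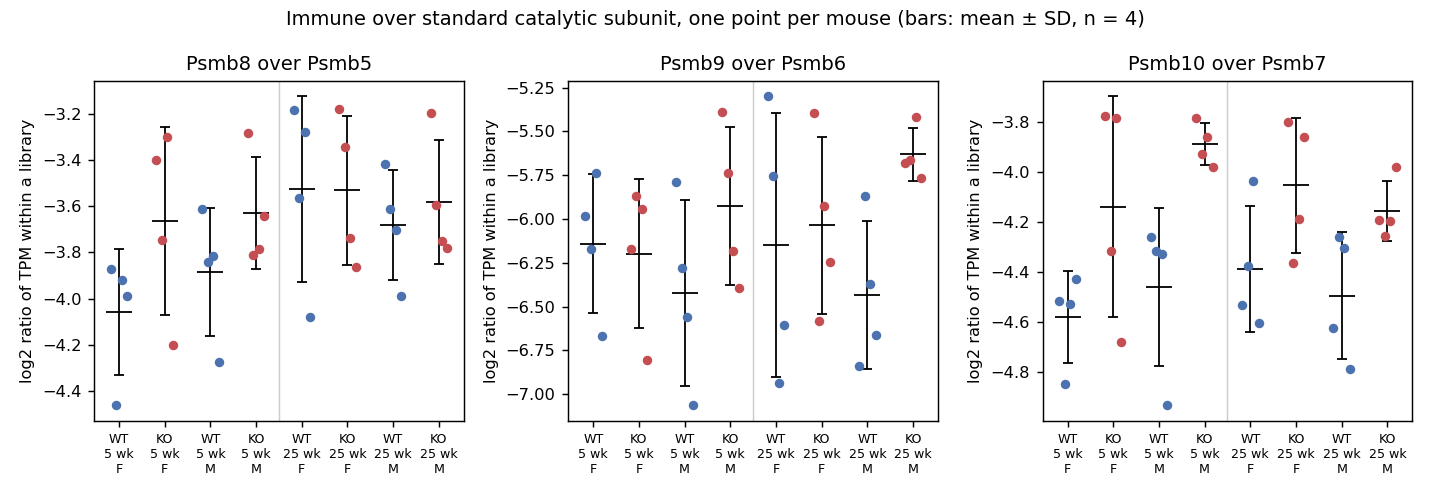
Log2 ratio of the TPM of each immune subunit to that of the standard subunit it replaces, computed within each library, by group (blue WT, red Col6a2-/-, written KO; 1 point per mouse, bars mean ± SD, n = 4). For Psmb10 over Psmb7 at 5 weeks, 6 of 8 red points lie above the highest blue point; the other pairs overlap more, with 3 of 8 for Psmb8 over Psmb5 and 2 of 8 for Psmb9 over Psmb6.

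Outside the core, calls at 5 weeks came from the 19S particle, the assembly factors and 1 cap. In the 19S particle, 3 of 17 subunits (17.6%, against 25.4% of all genes) were called higher: Psmc3, an ATPase of the base, Psmd11, a subunit of the lid, and Psmd4, a receptor for ubiquitin chains. Psmc3 stood at 52.9, 70.7, 62.0 and 66.1 TPM in WT females, 76.4, 65.6, 70.2 and 68.0 in WT males, 94.7, 102, 65.1 and 78.2 in Col6a2-/- females and 85.1, 74.7, 101 and 72.6 in Col6a2-/- males. Libraries of the genotypes overlapped, and the change was 0.33 ± 0.09 (limma, adjusted p = 0.0112). Psmc3 overlaps Slc39a13 on the other strand. Psmd11 had a lowest, median and highest level of 11.7, 12.6 and 15.0 TPM in WT and 12.7, 16.2 and 20.9 TPM in Col6a2-/- mice, a change of 0.32 ± 0.10 (adjusted p = 0.0169). Psmd4 went from 26.0 ± 2.68 to 31.8 ± 5.95 TPM (mean ± SD, n = 8), a change of 0.27 (limma, adjusted p = 0.0449).

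Assembly factors gave 3 calls of 7 (42.9%, against the same 25.4%). Psmg4, a chaperone of the 20S core, stood at 3.01, 2.77, 2.72 and 2.57 TPM in WT females, 3.25, 3.43, 3.60 and 2.92 in WT males, 4.45, 5.44, 4.42 and 2.75 in Col6a2-/- females and 4.37, 4.11, 4.07 and 3.82 in Col6a2-/- males. Female replicate 4 was once more the only Col6a2-/- library within the WT range, and the change was 0.35 ± 0.09 (limma, adjusted p = 0.00466). Psmd5 (0.33) and Psmd10 (0.27), chaperones of the 19S base, were also called, with adjusted p of 0.0198 and 0.0298.

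Of the caps and the inhibitor, Psme2b was the single call (0.40, with the limit of the filter given above; it also overlaps 9930111J21Rik1 on its own strand and may share reads with Psme2). Psme1, which overlaps Emc9 on the other strand, and Psme2 are the partners that form PA28. They stood at 15.0 ± 1.74 and 17.97 ± 3.53 TPM in WT and 17.7 ± 2.70 and 23.3 ± 5.71 TPM in Col6a2-/- mice (SD, n = 8). Their changes were 0.22 and 0.34 (limma, adjusted p of 0.0620 and 0.0574), and neither was called. Of 11 other settings, 0 called Psme1 and 1 called Psme2, with changes down to 0.04 and 0.15. Psme4 was one of 3 members with a value below 0 at 5 weeks (-0.17, 95% interval -0.41 to 0.07, adjusted p = 0.285), beside Psmf1 (-0.09) and Psma6 (-0.002).

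**Figure D3:**
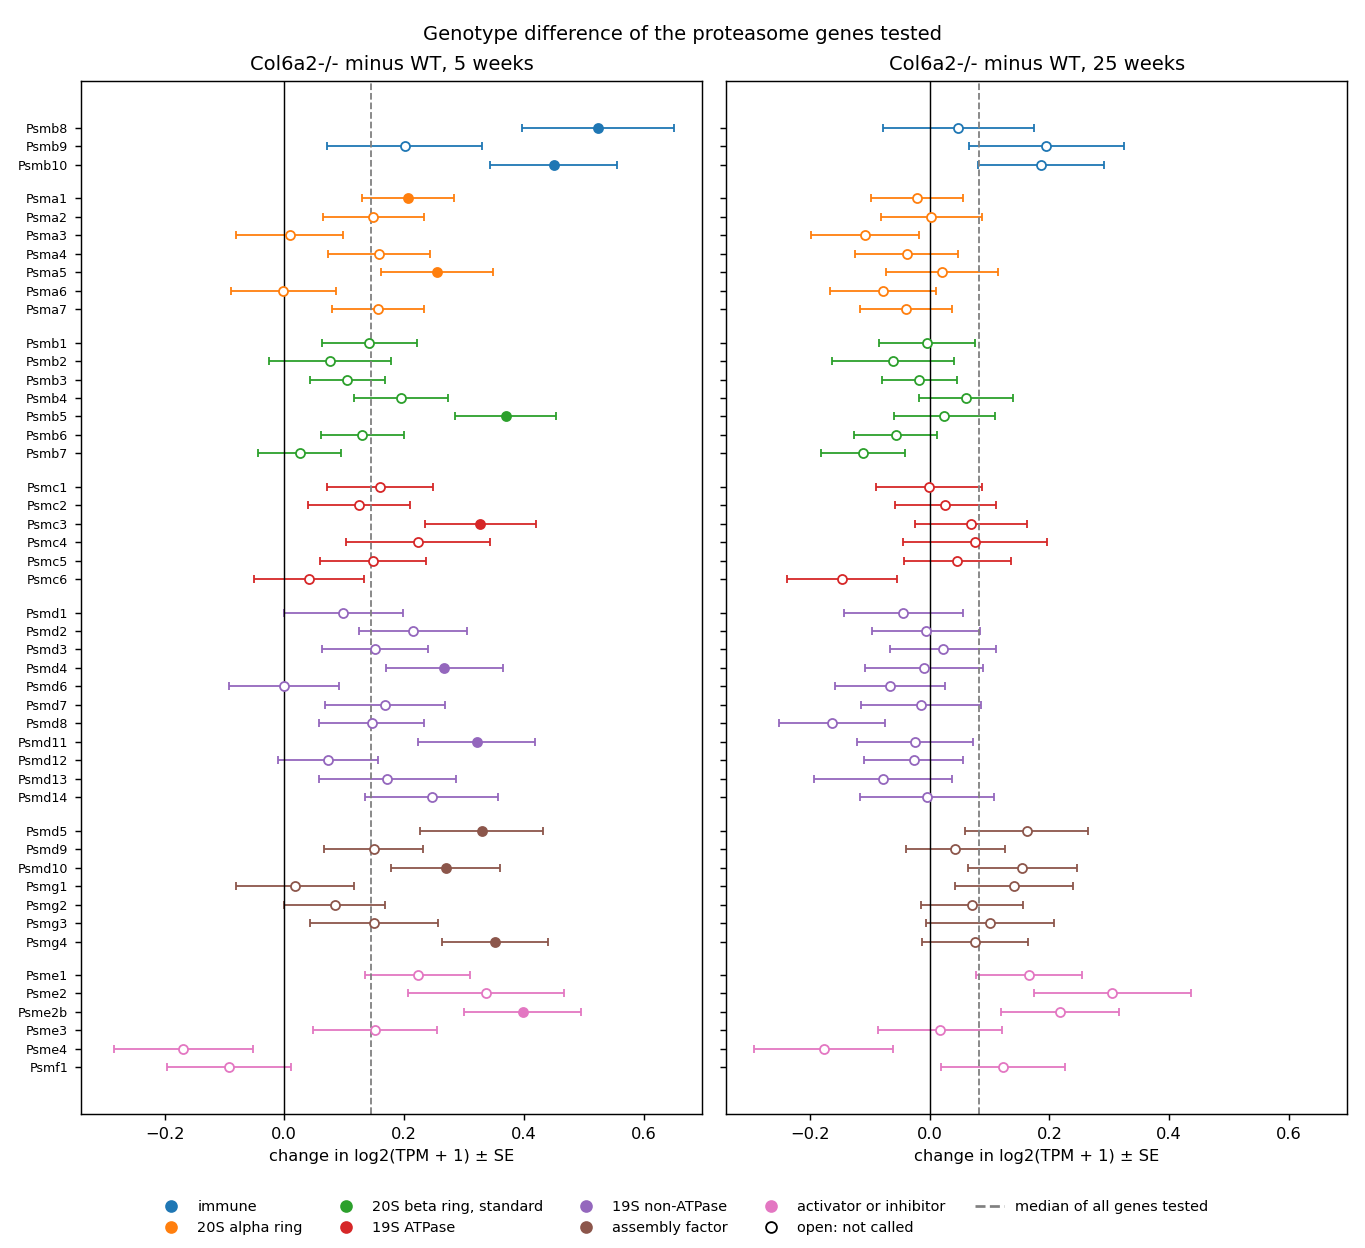
Change in log2(TPM + 1) ± SE, Col6a2-/- minus WT, for the 47 proteasome genes tested at 5 weeks (left) and 25 weeks (right), coloured by role; filled points were called and the dashed line is the median of all genes tested (0.145 and 0.0823). At 5 weeks 12 points are filled, all to the right of that line; at 25 weeks none is filled.

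Counted together, 12 of 47 members were called higher at 5 weeks and none lower. This is 25.5% of the members, and 25.4% of all genes tested were called in the same comparison (23.2% higher, 2.14% lower), so the share was close to the background. Without Psme2b, whose call the filter favoured, it was 11 of 46 (23.9%). The median change of the members (0.156) was likewise near that of all genes (0.145). That shift of all genes was 0.000616 with median-of-ratios size factors. Under these the members split into 5 higher and 6 lower, against 12 and 0 on the TPM scale. Quantile normalization gave 7 higher and 2 lower, and leaving out the 100 most abundant genes gave 6 and 2. Shares of all genes are not given for the latter 2 settings, so these counts cannot be set against a background. Over all genes, the share of calls that were higher was 91.6% on the TPM scale and 52.3% with size factors. With size factors 12.7% of all genes were called higher and 11.5% lower. Psmb5, Psmb8, Psmb10 and Psmg4 were still higher, beside Psme2b with the same limit of the filter, and Psma3, Psma6, Psmb7, Psmd6, Psme4 and Psmf1 were called lower. The Psmg4 call was lost with quantile normalization (limma, adjusted p = 0.0939). Relative to the median of all genes, the changes on the TPM scale were 0.22 for Psmb5, 0.38 for Psmb8, 0.30 for Psmb10 and 0.21 for Psmg4.

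Psmb5, Psmb8 and Psmb10 were called in every other setting of the fit in which they were tested (11, 10 and 11 settings) and without any single library (32 fits each). Without Col6a2-/- female replicate 4, or without male replicate 4, 17 members were called higher. Without female replicate 2 or male replicate 1 of Col6a2-/- mice the count was 6, and without Col6a2-/- male replicate 3 or WT male replicate 2 or 3 it was 7. Calls of Psma1, Psmd4, Psma5, Psmd10, Psmd5 and Psmd11 were lost in 23, 14, 12, 8, 5 and 1 of 32 fits that left out 1 library.

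Summed levels gave no separation of the standard particles. The 14 standard core genes summed to 680.9 ± 52.8 TPM in WT and 748.0 ± 99.9 TPM in Col6a2-/- mice at 5 weeks, and the 17 genes of the 19S particle to 544.2 ± 56.8 and 616.2 ± 107 TPM. Both differences were smaller than the spread within groups on the log2 scale (0.13 against an SD of 0.16, and 0.17 against 0.20), and both were below 0 with size factors. The immune sum was 7.95 ± 1.46 and 11.9 ± 2.72 TPM, a log2 difference of 0.56 against an SD of 0.34, and 0.37 with size factors.

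Split by sex, 4 members were called higher in 5-week females (Psmb5, Psmb8, Psmc3 and Psmg4, 8.51% against 12.3% of all genes called higher and 12.9% in either direction) and none in 5-week males (6 at an unadjusted p under 0.05; 5.03% of all genes called). Without Col6a2-/- female replicate 4, which sat near the WT level, the counts were 13 and 4; without Col6a2-/- female replicate 1 or 2 the count in females was 0. It was 1 without WT female replicate 1 or 3 and 2 without WT female replicate 2. With size factors none of the 4 was called in females, where Psme4 was called lower, and Psma6 was the one call in males, also lower. Leaving mitochondrial genes and Rn7s out of the scale, or fitting only the groups compared, also left no call in females. In males the former called 5 members higher (Psmb5, Psmb8, Psmb10, Psmd10 and Psme2b) and the latter 1 (Psme2b). In the main fit, the count in males was 2 without WT male replicate 1 or Col6a2-/- male replicate 4. It was 1 without Col6a2-/- 5-week female replicate 2 or 25-week male replicate 2. In males, the libraries of the 2 genotypes did not overlap for 5 members, Psmb5, Psmb8, Psmb10, Psmg4 and Psme2b, where 9.32% of all genes were higher without overlap. Psme2b, favoured by the filter, is one of them, and 4 remain without it. In females Psmd3 alone was higher without overlap, against 8.53% of all genes. The changes in log2(TPM + 1) stood side by side as 0.36 in females and 0.38 in males for Psmb5, 0.57 and 0.48 for Psmb8, 0.43 and 0.47 for Psmb10. Tested directly over both ages, genotype by sex gave no member (limma; 1 at an unadjusted p under 0.05, and 0.0156% of all genes called).

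At 25 weeks no proteasome gene was called between the genotypes (limma; 2 of 47, Psme2 and Psme2b, at an unadjusted p under 0.05), where 4.70% of all genes were. The median change of the members was 0.00260, against 0.0823 for all genes. Psmb5 stood at 27.0, 30.6 and 34.6 TPM (lowest, median, highest) in WT and 24.9, 31.3 and 34.9 TPM in Col6a2-/- mice, a change of 0.02 with a 95% interval of -0.15 to 0.20. Psmb8 stood at 1.67, 2.48 and 3.56 TPM in WT and 2.06, 2.48 and 3.60 TPM in Col6a2-/- mice, a change of 0.05 (-0.21 to 0.31). Psmb10, at 3.96, 4.40 and 6.23 TPM in WT and 4.58, 5.27 and 7.05 TPM in Col6a2-/- mice, differed by 0.19 (-0.03 to 0.40), and Psmb9 by 0.20 (-0.07 to 0.46). These intervals do not exclude differences of the size that all genes showed at that age.

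Psme2, one of the PA28 pair, had the largest change of the members at 25 weeks: 0.31 ± 0.13 (limma, adjusted p = 0.190), with 14.2, 15.8 and 17.6 TPM in WT and 15.2, 20.4 and 23.9 TPM in Col6a2-/- mice. In 25-week females the libraries of the genotypes did not overlap for Psme2 (14.7 to 17.6 against 20.3 to 21.6 TPM) and Psmg1, both higher (3.8% of all genes), nor for Psmb2 and Psmd12, both lower (0.999%). In 25-week males Psmb2, Psmb9 and Psmd11 were higher without overlap (13.9%). Within a sex at 25 weeks limma called no member (1 in females and 3 in males at an unadjusted p under 0.05), against 0.0078% and 3.03% of all genes. Macrophage markers stayed higher at this age, with 9 of 12 called and sums of 47.3 to 127.3 TPM in WT and 122.5 to 229.9 TPM in Col6a2-/- libraries, while 0 of 24 interferon and antigen processing genes were called (6 at an unadjusted p under 0.05). Size factors gave 11 members called lower at 25 weeks, among them Psmb6, Psmb7 and Psme4, against 0 on the TPM scale; this is 23.4% of the members, and 4.15% of all genes were called lower with the same size factors.

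The genotype difference was tested against age directly. No member was called for genotype by age (limma, with 6 at an unadjusted p under 0.05, and 0.492% of all genes called). Values were below 0 for 45 of 47 members and for 8550 of all 12817 genes tested. Without Col6a2-/- 5-week female replicate 4, 1 member was called lower. The median was -0.146 for the members and -0.0575 for all genes. Psmb8 gave -0.48 (95% interval -0.84 to -0.11, unadjusted p = 0.0128, limma adjusted p = 0.466), Psmd11 -0.35 and Psmb5 -0.35 (adjusted p of 0.520 and 0.347). Psmb9 gave -0.01 (-0.38 to 0.37). By this test a change in the genotype difference between the ages was not established for these genes.

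With age, part of the standard subunits fell in Col6a2-/- muscle. From 5 to 25 weeks, 16 of 47 members were called lower and none higher in Col6a2-/- mice, while 34.2% of all genes were called (28.8% lower, 5.41% higher), so the share was again close to the background. The 5-week Col6a2-/- libraries also enter the comparison of genotypes at 5 weeks, so the 2 sets of values are not independent. Psmb5 stood at 45.3 ± 7.43 TPM in younger and 31.3 ± 3.27 TPM in older Col6a2-/- mice (SD, n = 8 each). It fell by 0.51 ± 0.08 on the log2 scale, with an adjusted p of 3e-05 by limma, and all 8 older mice were below the mean of the younger. Psma3, a structural alpha subunit that overlaps 3110056K07Rik on the other strand, fell by 0.46 ± 0.09 (adjusted p = 0.000255), from 50.1 ± 8.02 to 36.0 ± 4.26 TPM. Psma5 fell by 0.39, Psmb6 by 0.32 and Psmb8 by 0.33, the last with an adjusted p of 0.0411 that was lost in 10 of 32 fits without 1 library and in 7 of 10 other settings.

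In the 19S particle of Col6a2-/- mice, 4 of 6 ATPases fell with age (Psmc6 by 0.32, Psmc3 by 0.30, Psmc1 by 0.28 and Psmc5 by 0.26; 28.8% of all genes were called lower), as did 3 of 11 other subunits (Psmd11 by 0.39, Psmd14, the subunit that removes ubiquitin, by 0.35, and Psmd6 by 0.31). Psmg4 and Psmd9 were the assembly factors that fell (0.29 and 0.26), and no cap was called. Psma1 and Psma4 completed the 16. Psma3, Psma5, Psmb5 and Psmb6 were called under all 11 alternatives and in all 32 fits without 1 library. Size factors left 5 members lower (18.1% of all genes), and leaving out mitochondrial genes and Rn7s from the scale also left 5. None of the 4 ATPases was called under either of these scalings. Over the same interval in these mice, 10 of 12 macrophage markers and 14 of 24 interferon and antigen processing genes were called lower, and their part in the proteasome values was not tested.

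In WT mice, 2 of 47 members were called with age, 4.26% against 19.8% of all genes (4.47% higher, 15.3% lower). Psma3 fell by 0.34 ± 0.09 (limma, adjusted p = 0.00712), from 40.9, 50.5 and 56.2 TPM (lowest, median, highest) at 5 weeks to 34.7, 38.2 and 48.9 TPM at 25 weeks, lower in 7 of 8 mice than the younger mean of the same sex. Psmd8, a subunit of the 19S lid, was higher by 0.27 ± 0.09 (adjusted p = 0.0299), from 45.0 ± 9.83 to 54.0 ± 10.0 TPM, above the younger mean of the same sex in 8 of 8 mice; this call was lost without any one of WT 5-week female replicate 1 or 3, WT 5-week male replicate 2 or 4, WT 25-week female replicate 1, or WT 25-week male replicate 1 or 4. The Psma3 call was lost when mitochondrial genes and Rn7s were left out of the scale (-0.21, limma adjusted p = 0.124), where 3 members were called higher and none lower. Size factors gave 7 higher and 1 lower, where 13.3% and 15.2% of all genes were called in those directions. Psmb5, by comparison, had a WT value of -0.17 with age and Psmb8 of 0.14, and neither was called. A fit of only the groups compared did call Psmb5 lower with age in WT, beside Psmd6 and Psma3.

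**Figure D4:**
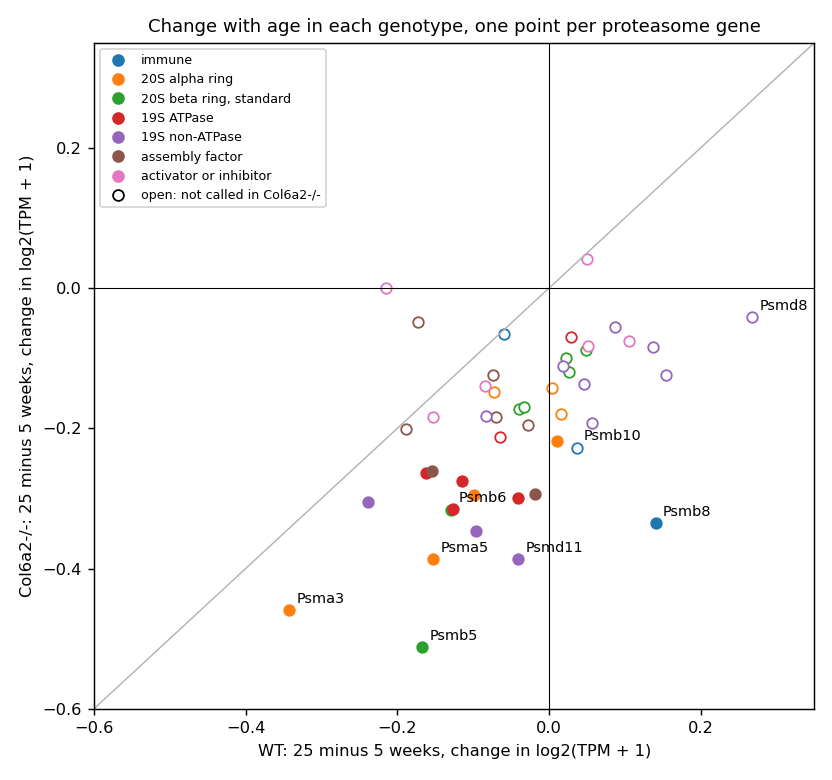
Change in log2(TPM + 1) from 5 to 25 weeks in WT (horizontal) and Col6a2-/- mice (vertical) for the 47 proteasome genes tested, coloured by role and filled where called in Col6a2-/- mice; the grey line marks equal change. In all, 45 of 47 points lie below the line, with Psmb5 at -0.17 and -0.51 and Psmb8 at 0.14 and -0.33. Over all genes tested, 8550 of 12817 would lie below it. Genotype by age was called for none of the 47.

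Sex left 1 mark on the complex. Psmd8 was higher in males by 0.37 ± 0.06 over both genotypes and ages (limma, adjusted p = 0.000289; 1 of 47 members, 2.13%, against 3.05% of all genes called and 1.87% higher in males). It stood at 33.99, 37.3, 33.0 and 42.4 TPM in WT females and 56.1, 48.4, 58.8 and 49.6 TPM in WT males at 5 weeks, and at 48.5, 44.8, 44.3 and 44.5 against 65.1, 54.8, 61.2 and 68.9 TPM at 25 weeks. In WT mice the males lay above all females at both ages, as did 17.0% of all genes at 5 and 0.991% at 25 weeks. In Col6a2-/- mice the sexes overlapped: 42.6, 60.7, 49.2 and 38.9 TPM in females and 53.3, 52.2, 53.7 and 43.8 TPM in males at 5 weeks, then 35.9, 37.9, 40.6 and 50.6 against 60.1, 48.0, 60.1 and 52.7 TPM at 25 weeks. Genotype by sex was not called for Psmd8 (-0.23, 95% interval -0.48 to 0.03, limma adjusted p = 0.9998). The call for sex held under all 10 alternatives run and in all 32 fits without 1 library. The immune subunits gave sex values of 0.01 to 0.02 and none was called.

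A list of partners of the proteasome that carry other names was also followed. Of 23 tested (among them Adrm1, a ubiquitin receptor, Pomp, an assembly factor of the core, and Nfe2l1, a transcription factor of proteasome genes), 0 were called at 5 weeks (limma; 4 at an unadjusted p under 0.05, and 25.4% of all genes called), with a median of 0.0922 against 0.145 for all genes. Pomp was at 0.37 ± 0.15 (limma, adjusted p = 0.0656) and Nfe2l1 at 0.23 ± 0.22 (adjusted p = 0.455). Of the 23 partners, 16 had values above 0 and 7 below, the lowest at -0.26.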

How the data were processed

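Whole-muscle RNA of 32 mice in 8 groups of 4 was sequenced from TruSeq libraries, per the labels. The submitters' processing notes name FastQC, MultiQC, Trimmomatic, HISAT2, SAMtools and StringTie and the builds GRCm38 and mm10, with no versions; annotation and strand use are not given in the sources used here. The deposited tables hold TPM, FPKM and coverage per gene. The authors computed TPM, which was summed per gene ID and used for all tests. The FPKM and coverage signal deposited by the authors served only to infer relative depth, and FPKM as an alternative for the ratios.

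Values were tested as log2(TPM + 1) with limma 3.58.1 in R 4.3.3 (8 group means, all 32 libraries, eBayes with trend, two-sided, Benjamini-Hochberg adjustment over 12817 genes) in 11 comparisons; sexes were weighted equally. The fit was tested on simulated data. Ratios and sums were computed with Python 3.11.15, numpy 2.4.6 and pandas 2.3.3, and plots with matplotlib 3.10.9. Each library is a separate mouse; no 2 were identical. Alternatives were other pseudocounts, filters, scalings and fits, and leaving out each library.

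The member set, which a rule on symbols fixes, and the lists and comparisons were chosen with earlier results of these data known. Any member could be named; values in each library are given for Psmb5, Psmb8, Psmb10, Psmc3 and Psmg4 at 5 weeks, Psmb2 at 25 weeks and Psmd8 at both ages, and other members are given by their range or mean. Genes that are no members are mainly given by counts, with at most 4 called names a list. Of the partners, none of which was called at 5 weeks, Adrm1, Pomp and Nfe2l1 are named. The list of ubiquitin genes is not reported here.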

Additional observations from a re-analysis of the deposited data

Results flagged for a closer look

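Within groups of 4 mice, a value was singled out where its gap to the nearest other mouse was large against the range of the group (Dixon's test). Of 216 groups over 27 proteasome genes, 16 held such a value, and chance gives about 1 in 20. In TPM, WT 5-week female replicate 2 was low for Psmb8 (1.561, others 2.127 to 2.241) and high for Psmd10 (3.865), Psmd6 (69.28), Psmc6 (60.23) and Psma4 (61.81). WT 25-week female replicate 2 was high for Psma3 (48.9), Psmd6 (66.44) and Psmd14 (24.87). WT 25-week male replicate 4 was high for Psma3 (41.11), Psmd6 (55.67) and Psme2b (0.8336). The remaining cases were Psmd11 in WT 25-week male replicate 3 (10.1), Psmd9 in WT 5-week male replicate 3 (3.226), Psmd8 in WT 25-week female replicate 1 (48.46) and in Col6a2-/- 5-week male replicate 4 (43.78), and Psme4 in Col6a2-/- 5-week female replicate 2 (58.95, others 32.28 to 35.72).

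The 47 members tested were screened by sex at each age and by age in each sex. In 6 cases, every Col6a2-/- mouse lay on one side of the WT mean in one group and on the other side in the second. The share of all genes that meet this rule was not computed, so the 6 cannot be set against a background. One case was Psmb2, a non-catalytic beta subunit, at 25 weeks. It stood at 40.4, 35.3, 31.4 and 37.5 TPM in WT females against 25.6, 28.2, 27.9 and 26.7 TPM in Col6a2-/- females. In males it stood at 27.1, 28.2, 33.2 and 28.3 TPM in WT against 37.2, 33.9, 35.2 and 35.5 TPM in Col6a2-/- mice. The genotypes overlapped in neither sex, and the difference between the sexes was 0.674 in log2 units (limma, unadjusted p = 0.00255), but its adjusted p over all genes was 0.991. Psmd9 gave 0.267 by sex at 25 weeks (limma, adjusted p = 0.991) and -0.2304 by age in females (adjusted p = 0.699). Psma1 and Psma4 gave -0.3142 and -0.2797 by age in females (adjusted p of 0.605 and 0.670), and Psmf1 gave 0.4093 by age in males (adjusted p = 0.9997). These tests within 1 sex or age were added after seeing the data, and none was called.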

How the results depend on the processing

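Counts of called proteasome genes moved with the scaling between libraries and with single libraries. With median-of-ratios size factors the counts were 11 for genotype at 25 weeks (all lower) and 1 in either sex at 5 weeks (Psme4 and Psma6, both lower). They were 6 in males at 25 weeks (all lower), 8 for age in WT and 5 for age in Col6a2-/- mice. Of all genes, size factors called 4.15% lower at 25 weeks, and 5.96% and 3.67% in 5-week females and males. In 25-week males 2.44% of all genes and 12.8% of the members were called lower. With age, 13.3% of all genes were called higher and 15.2% lower in WT, and 18.1% lower in Col6a2-/- mice. For the other settings, here and above, shares of all genes are not given, so those counts show only how the calls moved. Quantile normalization gave 1 at 25 weeks, 2 and 1 in 5-week females and males, and 7 for age in WT. Without the 100 most abundant genes there were 3 at 25 weeks, 1 in either sex at 5 weeks, 6 for age in WT and 10 for age in Col6a2-/- mice. Without mitochondrial genes and Rn7s they were 0 in 5-week females, 5 in 5-week males and 5 for age in Col6a2-/- mice. A fit of only the groups compared gave 7 for genotype at 5 weeks, 1 at 25 weeks, 0 and 1 in 5-week females and males, 4 for age in WT and 8 for age in Col6a2-/- mice. In 5-week females, no filter gave 1 and a filter at 5 TPM gave 2. Leaving out 1 library gave 6 to 17 members for genotype at 5 weeks, 0 to 13 and 0 to 4 in 5-week females and males, 0 to 1 for genotype by age, 1 to 3 for age in WT and 13 to 24 for age in Col6a2-/- mice.

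Summed levels with size factors (an alternative chosen after seeing the data) differed between genotypes by -0.06327 for the standard core at 5 weeks, and by -0.02379 for the 19S particle, both opposite in sign to the TPM values. At 25 weeks they were -0.1613 for the core and -0.149 for the 19S particle. The immune sum differed by 0.3656 at 5 weeks and 0.07467 at 25 weeks, against 0.5572 and 0.1954 on the TPM scale. Single genes changed sign too. At 5 weeks Psmb7 was at -0.1641 with size factors (called lower by limma, adjusted p = 0.0239), -0.07003 with quantile normalization, -0.1127 without the 100 most abundant genes and -0.0211 to 0.05129 without 1 library, and Psmb6 was at -0.05938 with size factors and -0.008063 without the 100 most abundant genes. At 25 weeks Psmb5 was at -0.09252, -0.02049, -0.04591 and -0.05081 with size factors, quantile normalization, without mitochondrial genes and Rn7s, and without the 100 most abundant genes, and Psmb8 at -0.03812, -0.07569, -0.002775 and -0.006605; without 1 library they ran from -0.006131 to 0.07198 and from -0.03538 to 0.0933. The cause of these moves was not tested.

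With replicate number as a block, 11 members were called for genotype at 5 weeks (Psmd4 and Psma5 lost, Psme2 gained) and 1, Psmb8, in 5-week males. In females of that age the count stayed at 4, with Psmb5 lost and Psmb10 gained, and the calls of the other comparisons were the same genes. Taken over all groups, the numbers showed no general pairing: over 112 same-numbered pairs the correlation of deviations ran from -0.34 to 0.349 (median 0.0322), with 35 above 0.1. Some groups stood higher, with 0.121 to 0.349 between WT 5-week and Col6a2-/- 25-week males. Between the genotypes at 5 weeks it was -0.0612 to 0.234 in females and 0.0742 to 0.232 in males. Depth is known only as an inferred relative measure, so no interval for single TPM values is given, and Psmb9 and Psme2b, near 1 TPM, are the least certain values.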
